A study of Homo sapiens with 9 samples.

Results

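Interferon-stimulated genes are the genes that cells switch on after interferon, and here they are a list of 44 genes followed across control, TRIM28 knockdown and PARP1 knockdown 786-O cells. Members were taken from the table by symbol. All 44 were found among the 61806 genes of the deposited table. A filter on low counts left 41 of them among 13562 tested genes, and CXCL10, CXCL11 and XAF1 did not pass it. Members whose counts pass such a filter are the expressed ones, so the counts below are over these 41.

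786-O is an established human clear cell renal carcinoma line. Polyadenylated RNA was sequenced from 3 libraries each of control, TRIM28 knockdown and PARP1 knockdown cells, and the labels name no interferon treatment. The reagent is an siRNA by the sample titles but an shRNA by the sample descriptions, and the control cells are named negative control in one place and parental in another. Whether they were transfected is therefore uncertain. The 9 libraries carry 1 batch label. Nothing in the labels says that the libraries of a group came from separate cultures, so p-values measure the spread between these libraries, which may be technical. TRIM28 is a co-repressor that brings silencing factors to zinc finger proteins on DNA, and PARP1 is an enzyme that attaches ADP-ribose chains to proteins at DNA breaks.

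Type I and type III interferons bind surface receptors whose JAK1 and TYK2 kinases phosphorylate STAT proteins, STAT2 among them. These join IRF9 and bind a DNA element, the interferon-stimulated response element, in front of many of the genes described here. IRF1, IRF3 and IRF7 can bind closely related elements without that complex. The products block viruses at entry, in translation, in replication and at budding, and USP18 and others turn the response down again.

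Total counts ran from 11963110 to 20224374 per library. Levels are given in CPM, counts scaled to library size with TMM factors, which can be compared between libraries for 1 gene. Between genes, levels are compared only in FPKM, which divides by gene length. TRIM28 was at 316, 341 and 381 CPM in the control libraries and at 44.0, 54.7 and 58.0 CPM in its own knockdown, 15.1% of the control mean. PARP1 was at 178, 200 and 153 CPM in the controls and at 6.82, 4.48 and 5.24 CPM in its own knockdown, 3.11% of the control mean. PARP1 was also lower in the TRIM28 knockdown, at 94.4, 93.3 and 93.6 CPM or 52.9% of control, so that group carried less of both transcripts. Of 8 leukocyte markers, 4 were at 0 counts in all 9 libraries, PTPRC, CD3E and MS4A1 among them. The 8 summed to between 0.397 and 1.12 CPM per library, while 7 renal epithelial and carcinoma markers summed to between 1436 and 2428 CPM. Most of that sum came from KRT8, KRT18 and PAX8, at control means of 647, 437 and 355 CPM. PAX2 and CA9 were scarce, at control means of 5.31 and 1.2 CPM. Libraries also differed in how counts went with gene length. Per doubling of summed exon length, log2 counts lay 0.0725 to 0.203 above the mean of all libraries in the controls, -0.0244 to -0.00085 in the TRIM28 knockdown and -0.167 to -0.0968 in the PARP1 knockdown. Because this gradient runs with the groups, values after removing the length and GC trends across all genes are given beside each named result whose call they change.

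In the TRIM28 knockdown, 18 of the 41 tested members rose, 3 fell and 20 did not pass the test, where 27.8% of all tested genes passed in either direction. The risen share of 43.9% stood beside 10.3% of all tested genes that rose, and the fallen share of 7.32% beside 17.5%. In the PARP1 knockdown, 19 members rose, 6 fell and 16 did not pass, where 59.3% of all tested genes passed. There the risen share of 46.3% stood beside 27.1% of all tested genes, and the fallen share of 14.6% beside 32.2%. The median log2 fold change of the members was 0.38 in the TRIM28 knockdown and 0.33 in the PARP1 knockdown, and over all tested genes it was -0.02 and -0.07. A gene was called changed at a Benjamini-Hochberg adjusted p below 0.05 in edgeR's quasi-likelihood test, and every adjusted p below comes from that test over 13562 genes. Scaled by library totals instead of TMM, 15 rose and 4 fell in the TRIM28 knockdown, beside 3.34% and 21.1% of all tested genes, and 15 rose and 13 fell in the PARP1 knockdown, beside 14.9% and 42.8%. The 7 further falls in the PARP1 knockdown were STAT2, OAS2, OAS3, MX1, IFI44, IFI44L and RSAD2. The rises lost with library totals were IFIT1 (0.37), MX2 (0.57) and USP18 (0.39) in the TRIM28 knockdown, and CMPK2 (0.20), IRF7 (0.91), LGALS3BP (0.01) and USP18 (0.26) in the PARP1 knockdown. Both comparisons use the same 3 control libraries, so their values stand side by side and are no independent evidence for each other. In bulk RNA, fewer cells making a transcript and less of it per cell cannot be told apart.

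**Figure D1:**
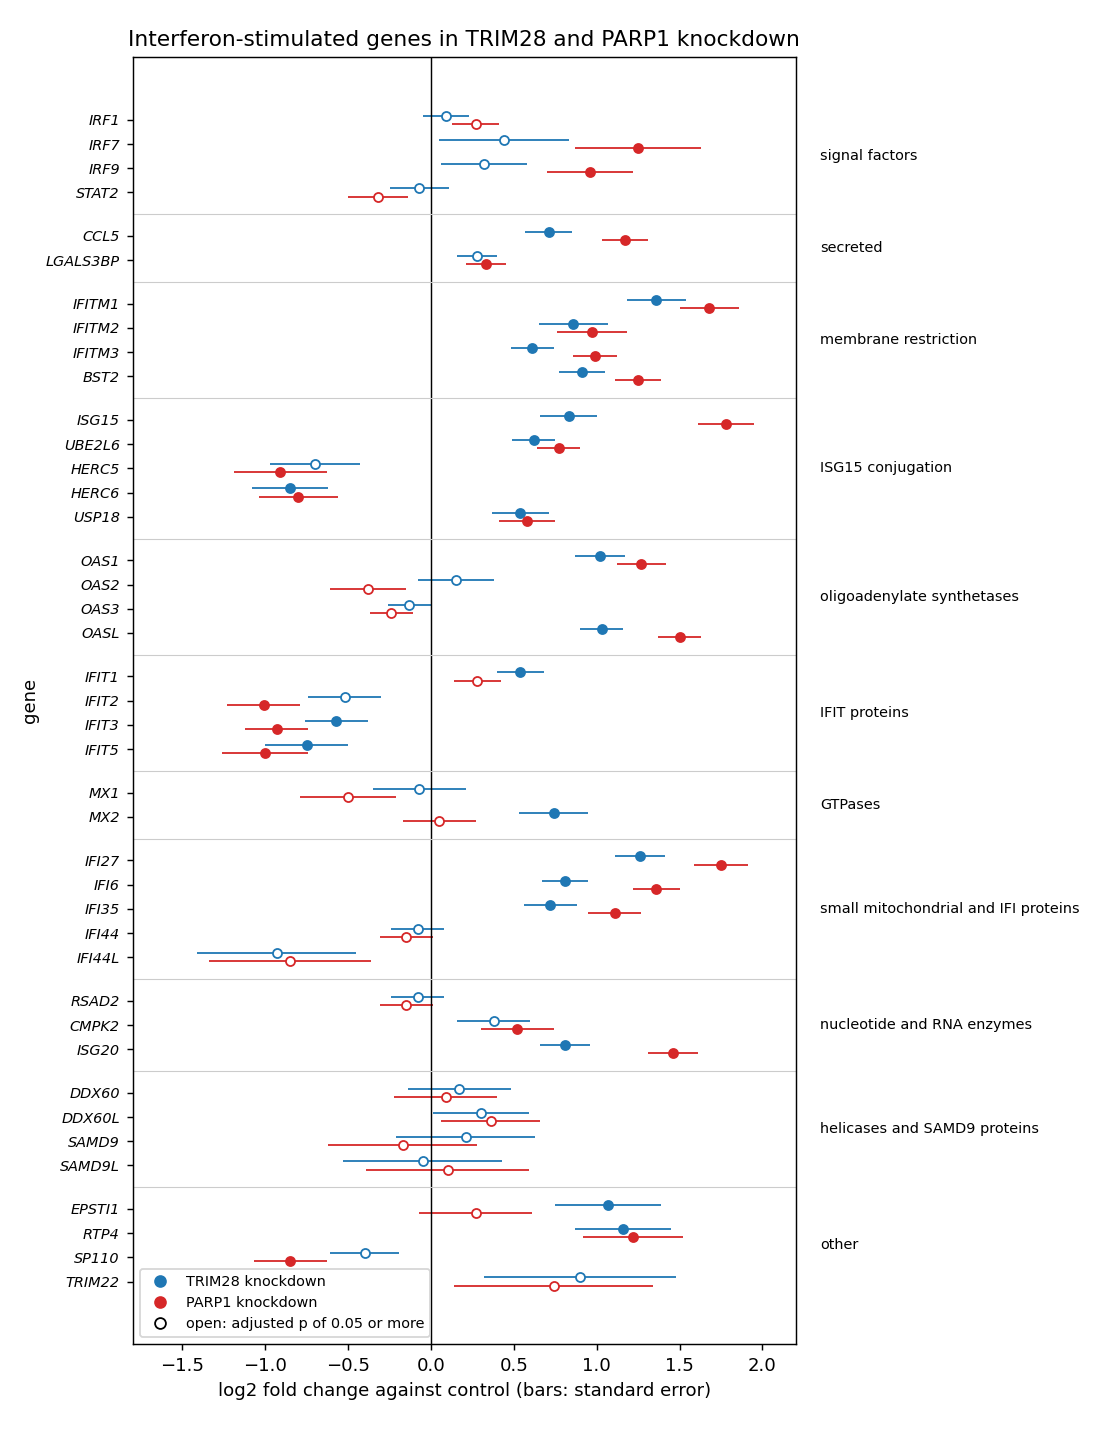
Log2 fold change (x axis) of the 41 tested members (rows, grouped by role) in the TRIM28 knockdown and the PARP1 knockdown against control, with standard errors as bars and filled points for members that passed the test (edgeR, adjusted p below 0.05). The 18 and 19 members that rose lie to the right of 0, and the IFIT, HERC and SP110 genes that fell lie to the left.

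Members together took 0.211% ± 0.00564 (SD, n = 3) of all counts in the control, 0.285% ± 0.00635 in the TRIM28 knockdown and 0.326% ± 0.0153 in the PARP1 knockdown. Per unit length, the highest members in the control cells were ISG15 at 170 FPKM, IFI6 at 154, CCL5 at 117 and BST2 at 91.6. The same 4 led in this order in both knockdowns, where ISG15 reached 271 and 460 FPKM. The rises in these members thus start from levels that were already high in control cells.

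Many of the members share a promoter element that the choice by symbol did not use. RefSeq promoter sequences (GRCh38.p14) matched 35 of the 44 members, and 250 bases before each start were searched on both strands. The letters GAAA, then any 2 bases, then GAAA, the core of the interferon-stimulated response element, were found in 23 of 35 members, 65.7%, and in 1014 of 27303 genes in the promoter table, 3.71%. The palindromic TTCNNNGAA, the general site of STAT dimers, was found in 12 of 35 members, 34.3%, and in 8.09% of all genes. The next 13 stretches show the first element in members that rose, fell or did not pass the test. Each is written 5′ to 3′ on the gene's strand with the matched letters in capitals. Where the match lies on the opposite strand, the capitals show its complement and begin with TTTC.

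The members listed next rose in both knockdowns and hold the element in different copy numbers and orientations, with overlapping copies in BST2 and ISG15:
ISG15 (chr1:1013354-1013423, plus strand): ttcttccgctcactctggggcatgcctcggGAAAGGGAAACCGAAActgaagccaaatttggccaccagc
IFI6 (chr1:27672268-27672337, minus strand): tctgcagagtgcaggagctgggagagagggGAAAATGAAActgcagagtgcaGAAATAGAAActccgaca
BST2 (chr19:17405721-17405790, minus strand): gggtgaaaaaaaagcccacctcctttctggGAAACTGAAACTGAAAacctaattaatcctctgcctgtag
IFITM1 (chr11:313970-314039, plus strand): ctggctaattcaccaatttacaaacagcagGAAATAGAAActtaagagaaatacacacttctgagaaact
IFI27 (chr14:94110598-94110667, plus strand): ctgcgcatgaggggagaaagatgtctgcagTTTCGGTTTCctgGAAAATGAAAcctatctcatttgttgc
ISG20 (chr15:88638917-88638986, plus strand): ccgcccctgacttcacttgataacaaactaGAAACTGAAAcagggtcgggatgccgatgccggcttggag
RTP4 (chr3:187368313-187368382, plus strand): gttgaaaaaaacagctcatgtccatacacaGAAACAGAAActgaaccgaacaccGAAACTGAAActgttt

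IFIT1, which passed as higher in the TRIM28 knockdown, and 3 members that fell in 1 or both knockdowns carry it on the opposite strand:
IFIT1 (chr10:89392477-89392546, plus strand): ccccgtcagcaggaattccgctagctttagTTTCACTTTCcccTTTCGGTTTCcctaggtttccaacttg
IFIT3 (chr10:89332448-89332517, plus strand): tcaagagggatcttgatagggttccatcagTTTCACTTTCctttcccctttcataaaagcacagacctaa
IFIT5 (chr10:89414493-89414562, plus strand): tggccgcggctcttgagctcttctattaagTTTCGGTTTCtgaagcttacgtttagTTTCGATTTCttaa
HERC5 (chr4:88456964-88457033, plus strand): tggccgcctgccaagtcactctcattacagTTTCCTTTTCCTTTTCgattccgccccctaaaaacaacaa

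Some members that passed in neither knockdown hold it as well:
OAS3 (chr12:112938301-112938370, plus strand): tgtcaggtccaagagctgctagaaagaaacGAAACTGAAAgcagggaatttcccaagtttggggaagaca
RSAD2 (chr2:6877602-6877671, plus strand): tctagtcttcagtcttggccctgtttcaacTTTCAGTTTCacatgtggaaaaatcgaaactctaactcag

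By call, the element was present in 11 of 16 members that rose in at least 1 knockdown and have a promoter in the table. It was present in 3 of 5 that fell in at least 1, and in 8 of 11 that were tested and passed in neither. OAS1, UBE2L6, IRF9, IFI35 and CMPK2 rose and have no match in their windows, which says only that these letters are not in those bases.

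Among the signal factors, IRF7 and IRF9 rose in the PARP1 knockdown and none of the 4 passed in the TRIM28 knockdown, in edgeR or in DESeq2, with 0 at an unadjusted p below 0.05 in edgeR. IRF9, the DNA-binding subunit of the STAT complex, was at 2.89, 2.86 and 2.12 CPM in the controls, 3.05, 3.27 and 3.5 in the TRIM28 knockdown and 5.3, 5.84 and 4.16 in the PARP1 knockdown. All PARP1 knockdown libraries lay above all controls, with a log2 fold change of 0.96 (SE 0.26, adjusted p = 0.00219), beside 0.32 (SE 0.26, adjusted p = 0.374) in the TRIM28 knockdown. An unnamed gene overlaps IRF9 on the same strand, so its counts are uncertain. IRF7, the factor that amplifies interferon production, was at 1.73, 1.5 and 1.52 CPM in the controls, 0.872, 3.19 and 2.47 in the TRIM28 knockdown and 2.45, 3.04 and 6.04 in the PARP1 knockdown. Its PARP1 knockdown libraries were all above the controls but spread widely, and the log2 fold change was 1.25 (SE 0.38, adjusted p = 0.00643). Without PARP1 knockdown replicate 3 it was 0.79 and did not pass, and with the length and GC trends removed it was 0.25. STAT2, a subunit of the STAT complex, had log2 fold changes of -0.07 and -0.32, and IRF1, an early response factor, had 0.09 and 0.27. Neither passed, although IRF1 passed in both knockdowns with the trends removed, at 0.37 and 0.80. Per unit length within each library, IRF9 stood at 0.212, 0.22 and 0.134 of STAT2 in the controls, 0.28, 0.227 and 0.229 in the TRIM28 knockdown and 0.368, 0.594 and 0.438 in the PARP1 knockdown. IRF9 has 6471 bases and 55.4% GC and STAT2 9310 bases and 50.2% GC, and the part of these trends in the ratio was not tested. This pair was not set in advance and is given as description.

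The chemokine CCL5 (ENSG00000271503, chr17:35871491-35880793, minus strand, GRCh38), which draws T cells and monocytes, rose in both knockdowns. Its levels were 140, 164 and 169 CPM in the controls, 253, 298 and 221 in the TRIM28 knockdown and 296, 399 and 365 in the PARP1 knockdown. Neither knockdown overlapped the controls, and the log2 fold changes were 0.71 (SE 0.14, adjusted p = 0.000791) and 1.17 (SE 0.14, adjusted p = 2.7e-07). Both still passed with the trends removed, at 0.37 and 0.55. LGALS3BP, a secreted glycoprotein, was at 258, 274 and 287 CPM, then 299, 347 and 346, then 359, 335 and 336 in the same order of groups. Both knockdowns lay above the controls by a small margin. The log2 fold change passed in the PARP1 knockdown, at 0.33 (SE 0.12, adjusted p = 0.0246), and not in the TRIM28 knockdown, at 0.28 (SE 0.12, adjusted p = 0.0971). That rise is not secure: it did not pass without control replicate 1 (0.33, adjusted p = 0.0656) or control replicate 2 (0.37, adjusted p = 0.0524), and it turned to -0.26 with the trends removed. CXCL10 and CXCL11, the interferon-induced CXCR3 ligands, stayed below 1 CPM in every library. CXCL10 ran from 0.0484 to 0.797 CPM over the 9 libraries, so no change in it could be read at this depth.

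All 4 members that restrict viruses at membranes rose in both knockdowns. BST2 (tetherin, ENSG00000130303, chr19:17402939-17405630, minus strand) holds budding virus at the cell surface. It was at 78.2, 93.4 and 99.7 CPM in the controls, 169, 183 and 159 in the TRIM28 knockdown and 186, 233 and 228 in the PARP1 knockdown. Every knockdown library exceeded every control, with log2 fold changes of 0.91 (SE 0.14, adjusted p = 3.05e-05) and 1.25 (SE 0.14, adjusted p = 4.85e-08). Removing the trends brought these to 0.45 and 0.33, and both still passed. IFITM1 (ENSG00000185885, chr11:310041-315272, plus strand), which blocks viral fusion at the plasma membrane, was at 9, 13 and 13.9 CPM in the controls, 29.6, 33.1 and 29.8 in the TRIM28 knockdown and 29.9, 46.5 and 38.7 in the PARP1 knockdown. That was 2.57-fold and 3.19-fold higher, or 1.36 (SE 0.18, adjusted p = 5.55e-06) and 1.68 (SE 0.18, adjusted p = 2.9e-08) on the log2 scale, and 1.07 and 1.15 with the trends removed. IFITM3, which acts in endosomes, rose by 0.61 and 0.99 on the log2 scale, and by 0.31 and 0.43 with the trends removed. IFITM2 rose by 0.86 and 0.97, and did not pass in either knockdown with the trends removed, at 0.47 and 0.23. The 3 IFITM genes are related neighbours on chromosome 11, so reads may have been split between them.

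**Figure D2:**
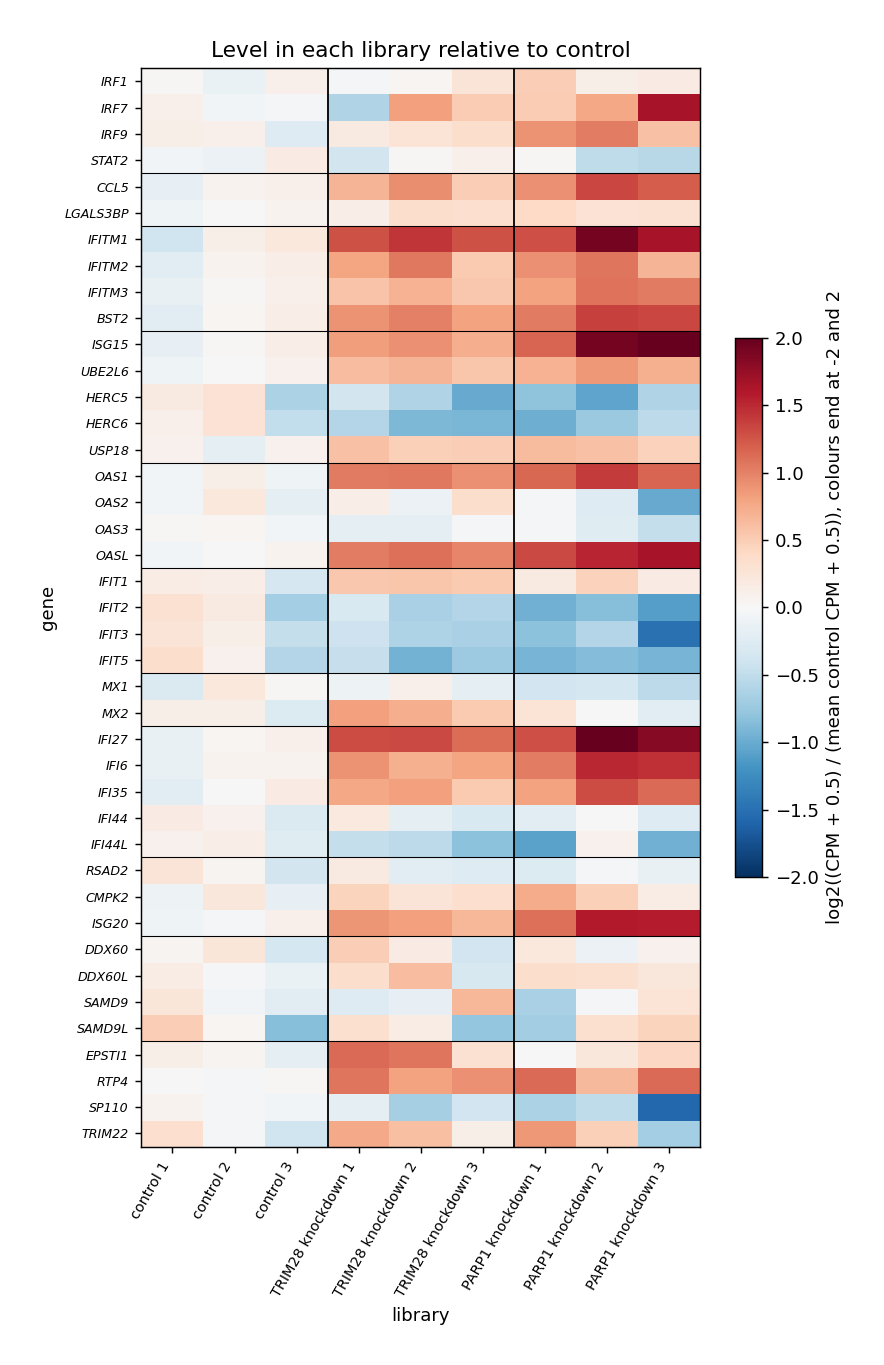
Heat map of the 41 tested members (rows, by role) in the 9 libraries (columns). Colour is the log2 ratio of CPM + 0.5 to the control mean + 0.5 and ends at -2 and 2, and IFITM1, BST2, OAS1, OASL and IFI27 are red in all 6 knockdown libraries while HERC5, IFIT2, IFIT3 and IFIT5 are bluish there and also in control 3.

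Among the 5 members of the ISG15 conjugation system, the modifier ISG15, its conjugating enzyme and its protease rose in both knockdowns. HERC6 fell in both and HERC5 in the PARP1 knockdown. UBA7, a gene of this system that is not a member, had 0.25 in the TRIM28 knockdown, which did not pass. It rose by 0.79 in the PARP1 knockdown and passed there with the trends removed, at 0.50. ISG15 (ENSG00000187608, chr1:1001138-1014540, plus strand) is a ubiquitin-like protein that is joined to target proteins. Its level was 118, 134 and 144 CPM in the controls, 237, 249 and 218 in the TRIM28 knockdown and 296, 499 and 567 in the PARP1 knockdown. These groups did not overlap, and ISG15 was 1.78-fold higher (log2 0.83, SE 0.17, adjusted p = 0.000809) and 3.44-fold higher (log2 1.78, SE 0.17, adjusted p = 6.6e-09). At 867 bases of summed exon length it is the shortest tested member, and with the length and GC trends removed the values were 0.32 (adjusted p = 0.0644), which did not pass, and 0.57, which did.

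UBE2L6, the enzyme that passes ISG15 to its ligases, was at 59.5, 62.7 and 67.3 CPM in the controls, 97.7, 101 and 92.8 in the TRIM28 knockdown and 103, 116 and 104 in the PARP1 knockdown. All knockdown libraries were above the controls, with log2 fold changes of 0.62 (SE 0.13, adjusted p = 0.000824) and 0.77 (SE 0.13, adjusted p = 1.15e-05). With the trends removed these were 0.23 and 0.00 and neither passed. USP18, the protease that removes ISG15 and also dampens receptor signalling, rose by 0.54 (SE 0.17, adjusted p = 0.0188) and 0.58 (SE 0.17, adjusted p = 0.00505), and its values were 0.54 and 0.66 with the trends removed. Its TRIM28 knockdown rise was lost when control replicate 2 (0.47) or TRIM28 knockdown replicate 1 (0.51) was left out, and related copies of USP18 in the genome make its counts uncertain.

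HERC5, the main ISG15 ligase in human cells, was at 6.64, 7.21 and 3.59 CPM in the controls, 4.42, 3.67 and 2.65 in the TRIM28 knockdown and 3.11, 2.54 and 3.66 in the PARP1 knockdown. Control 3 overlapped both knockdowns. The log2 fold change was -0.70 (SE 0.27, adjusted p = 0.0578) in the TRIM28 knockdown and -0.91 (SE 0.28, adjusted p = 0.00794) in the PARP1 knockdown. Its paralog HERC6 was at 9.53, 10.9 and 6.13 CPM in the controls, 5.73, 4.54 and 4.46 in the TRIM28 knockdown and 4.24, 5.07 and 6.04 in the PARP1 knockdown, lower in every knockdown library. It fell by 0.85 (SE 0.23, adjusted p = 0.00946) and 0.80 (SE 0.24, adjusted p = 0.00544) on the log2 scale. With the trends removed none of these 3 calls held, at -0.57 for HERC6 in the TRIM28 knockdown and -0.37 and -0.22 for HERC5 and HERC6 in the PARP1 knockdown. In the PARP1 knockdown, HERC5 (-0.69) and HERC6 (-0.59) did not pass without control replicate 2. The TRIM28 knockdown fall of HERC6 did not pass without control replicate 1 (-0.77), control replicate 2 (-0.65), TRIM28 knockdown replicate 2 (-0.77) or TRIM28 knockdown replicate 3 (-0.76). Per unit length within a library, UBE2L6 stood at 17.5, 16.1 and 30.8 times HERC6 in the controls, 47.8, 62.2 and 58.3 times in the TRIM28 knockdown and 67.9, 64.1 and 48.3 times in the PARP1 knockdown. UBE2L6 has 2062 bases and 57.2% GC and HERC6 5779 bases and 46.3% GC. The part of the length and GC trends in this ratio was not tested. Nor was the pair set in advance.

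The oligoadenylate synthetase family split by gene, with OAS1 and OASL higher in both knockdowns and OAS2 and OAS3 passing in neither. OAS1 (ENSG00000089127, chr12:112905856-112933219, plus strand) makes the short adenylate chains that activate RNase L on sensing double-stranded RNA. Its level was 14.1, 15.9 and 13.8 CPM in the controls, 30.5, 30.8 and 27.9 in the TRIM28 knockdown and 33, 39.5 and 33.2 in the PARP1 knockdown. The groups were far apart, at 2.03-fold (log2 1.02, SE 0.15, adjusted p = 1.77e-05) and 2.41-fold (log2 1.27, SE 0.15, adjusted p = 1.14e-07) above control. Removing the trends raised these log2 values to 1.44 and 2.08.

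OASL (ENSG00000135114, chr12:121017763-121039246, minus strand), a catalytically inactive relative that enhances RIG-I signalling, was at 237, 243 and 256 CPM in the controls, 496, 528 and 482 in the TRIM28 knockdown and 610, 705 and 771 in the PARP1 knockdown. The 3 groups did not overlap, with OASL 2.05-fold (log2 1.03, SE 0.13, adjusted p = 3.14e-06) and 2.83-fold (log2 1.5, SE 0.13, adjusted p = 1.23e-09) above control, and at 1.18 and 1.86 on the log2 scale with the trends removed. OAS3, beside OAS1 on chromosome 12, was at 88.5, 89.7 and 84.2 CPM in the controls, 76.8, 77 and 85.7 in the TRIM28 knockdown and 85.6, 73.6 and 63 in the PARP1 knockdown. Its log2 fold changes were -0.13 and -0.24, and those of OAS2 were 0.15 and -0.38. OAS2 passed in the TRIM28 knockdown with the trends removed, at 0.58. Per unit length within a library, OAS1 was 0.221, 0.246 and 0.227 of OAS3 in the controls, 0.55, 0.555 and 0.451 in the TRIM28 knockdown and 0.534, 0.744 and 0.731 in the PARP1 knockdown. This ratio does not depend on library scaling, and it was higher in every knockdown library than in any control. The pair was chosen after its values were seen.

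The IFIT proteins, which bind foreign RNA ends and stall translation, lie side by side on chromosome 10 and did not move together. IFIT1 (ENSG00000185745, chr10:89392546-89406487, plus strand), which binds RNA lacking cap methylation, was at 50.8, 50.1 and 35.9 CPM in the controls, 66.4, 66.9 and 65.6 in the TRIM28 knockdown and 51.9, 63 and 51.3 in the PARP1 knockdown. It was above the controls in all 6 knockdown libraries and rose in the TRIM28 knockdown (log2 0.54, SE 0.14, adjusted p = 0.00737). The PARP1 knockdown value of 0.28 (SE 0.14, adjusted p = 0.0961) did not pass, though it did with the trends removed, where the values were 0.82 and 0.80. IFIT3 (ENSG00000119917, chr10:89327307-89377473, plus strand), which stabilises IFIT1 on RNA, was at 53.9, 49.2 and 32.2 CPM in the controls, 33.6, 29.3 and 28.5 in the TRIM28 knockdown and 25.2, 29.8 and 15.7 in the PARP1 knockdown. Control 3 overlapped the TRIM28 knockdown, and the PARP1 knockdown lay below all controls. IFIT3 fell by 0.57 (SE 0.19, adjusted p = 0.027) and by 0.93 (SE 0.19, adjusted p = 0.000186) on the log2 scale.

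IFIT2 was at 17.5, 16.1 and 8.66 CPM in the controls, 11.3, 8.85 and 9.22 in the TRIM28 knockdown and 7.02, 7.61 and 6.33 in the PARP1 knockdown. Only the PARP1 knockdown was below all controls, where IFIT2 fell by 1.01 (SE 0.22, adjusted p = 0.000427), beside -0.52 (SE 0.22, adjusted p = 0.0723) in the TRIM28 knockdown. IFIT5 fell by 0.75 (SE 0.25, adjusted p = 0.0275) and 1.00 (SE 0.26, adjusted p = 0.00198). With the trends removed, the falls of IFIT2 and IFIT5 in the PARP1 knockdown still passed, at -0.52 and -0.62. That of IFIT3 there (-0.38) and those of IFIT3 (-0.28) and IFIT5 (-0.53) in the TRIM28 knockdown did not. In the TRIM28 knockdown, IFIT3 did not pass without control replicate 1 (-0.40), control replicate 2 (-0.48), TRIM28 knockdown replicate 2 (-0.51) or TRIM28 knockdown replicate 3 (-0.50). IFIT5 did not pass there without the same libraries in turn, at -0.50, -0.68, -0.61 and -0.71. The lysosomal lipase gene LIPA overlaps IFIT1, IFIT2 and IFIT3 on the opposite strand. How the counting treated strand is not known here, so reads of LIPA cannot be told apart from theirs. An unnamed gene overlaps IFIT2 on the same strand, which also leaves the counts of IFIT2 uncertain.

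IFIT1 and IFIT3 have similar summed exon lengths of 4614 and 5067 bases, and their ratio within a library is free of library scaling. Per unit length, IFIT1 was 1.03, 1.12 and 1.23 times IFIT3 in the controls, 2.17, 2.51 and 2.53 times in the TRIM28 knockdown and 2.27, 2.32 and 3.58 times in the PARP1 knockdown. Both knockdowns lay wholly above the controls. Against IFIT2 the ratio of IFIT1 was 2.72, 2.92 and 3.89 in the controls, 5.49, 7.09 and 6.67 in the TRIM28 knockdown and 6.93, 7.76 and 7.59 in the PARP1 knockdown. These pairs too were picked after their values were seen, and are given as description.

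**Figure D3:**
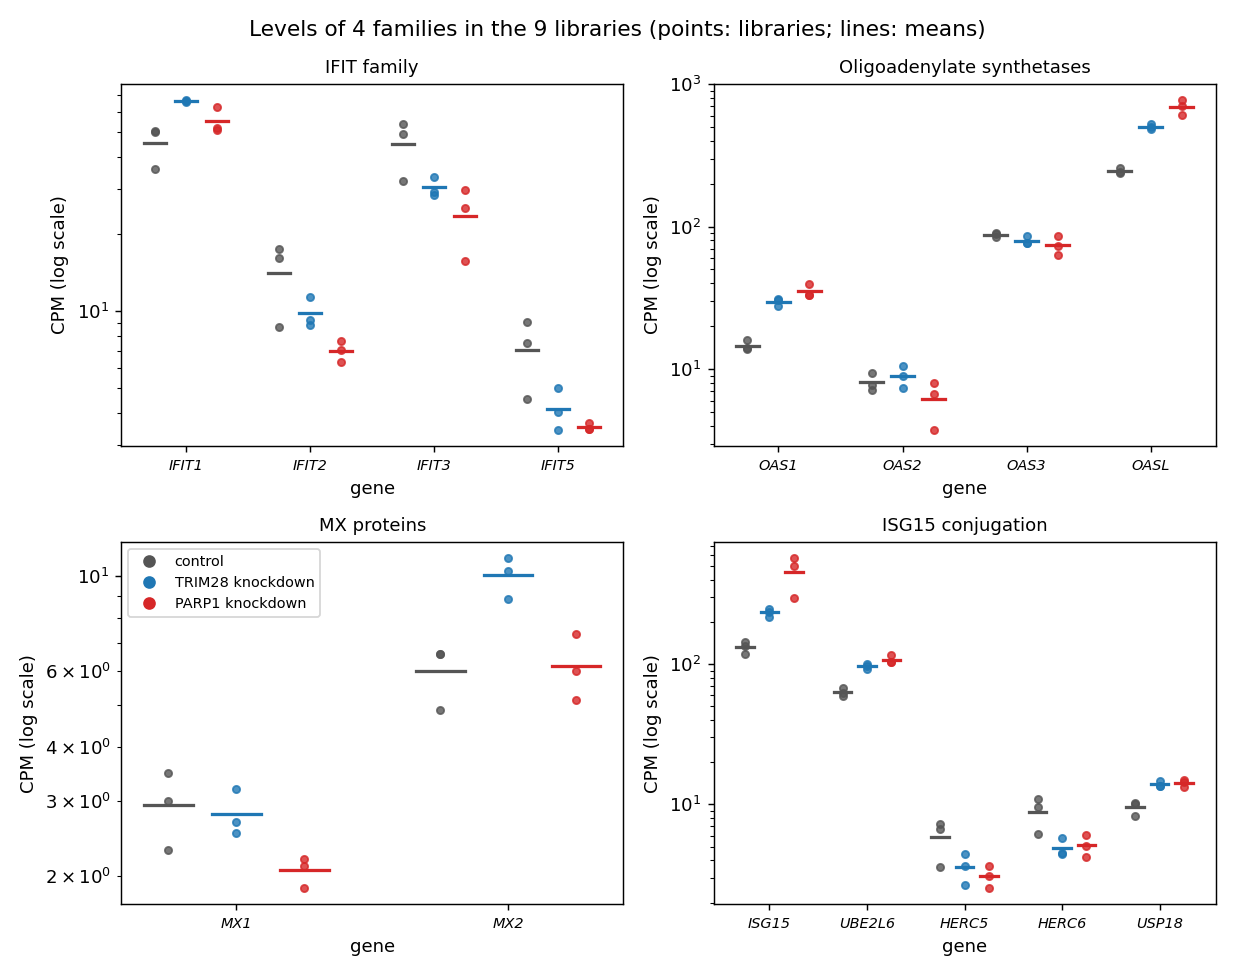
CPM (y axis, log scale) of the members of 4 families in each library, with 1 point per library and a line at each group mean, for control, TRIM28 knockdown and PARP1 knockdown cells. IFIT1 is higher and IFIT2, IFIT3 and IFIT5 have lower means in the knockdowns, OAS1 and OASL stand above their controls while OAS3 does not, and MX2 stands above its controls in the TRIM28 knockdown.

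Of the MX GTPases, which trap viral nucleocapsids, MX2 rose in the TRIM28 knockdown and MX1 passed in neither. MX2 was at 6.59, 6.58 and 4.88 CPM in the controls, 11, 10.3 and 8.86 in the TRIM28 knockdown and 7.35, 6 and 5.14 in the PARP1 knockdown. Only the TRIM28 knockdown stood clear of the controls, with log2 fold changes of 0.74 (SE 0.21, adjusted p = 0.0103) and 0.05 (SE 0.22, adjusted p = 0.867). Both passed with the trends removed, at 1.16 and 0.85. Under TMM scaling alone, the TRIM28 knockdown rise of MX2 did not pass without TRIM28 knockdown replicate 1 (0.67, adjusted p = 0.0514). MX1 was at 2.31, 3.49 and 3 CPM, then 2.68, 3.19 and 2.53, then 2.12, 2.2 and 1.88 CPM, with log2 fold changes of -0.07 and -0.50. The PARP1 knockdown of MX1 lay below all controls but its adjusted p was 0.144.

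Among the small IFI proteins, IFI27, IFI6 and IFI35 rose in both knockdowns and IFI44 and IFI44L passed in neither. IFI27 (ENSG00000165949, chr14:94104836-94116695, plus strand), a membrane protein of mitochondria and the nuclear envelope, was at 44.4, 50.3 and 52.7 CPM in the controls, 122, 124 and 107 in the TRIM28 knockdown and 121, 199 and 175 in the PARP1 knockdown. No control came near a knockdown library, and IFI27 was 2.39-fold (log2 1.26, SE 0.15, adjusted p = 2.79e-06) and 3.36-fold (log2 1.75, SE 0.16, adjusted p = 2.09e-09) higher. IFI6 (ENSG00000126709, chr1:27666064-27672212, minus strand), a relative that protects the endoplasmic reticulum from flavivirus remodelling, was at 116, 135 and 136 CPM, then 241, 212 and 223, then 264, 369 and 356. The 3 groups were separate, with log2 fold changes of 0.81 (SE 0.14, adjusted p = 0.000162) and 1.36 (SE 0.14, adjusted p = 2.1e-08), which were 0.36 and 0.48 with the trends removed and still passed. IFI35 rose by 0.72 and 1.11, and with the trends removed had 0.31 and 0.24, which did not pass. IFI44 had log2 fold changes of -0.08 and -0.15, and the scarce IFI44L had -0.93 (SE 0.48) and -0.85 (SE 0.49).

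The exonuclease ISG20 (ENSG00000172183, chr15:88635670-88656483, plus strand), which degrades single-stranded viral RNA, rose in both knockdowns. It was at 19, 19.7 and 21.7 CPM in the controls, 37.6, 35.7 and 32.2 in the TRIM28 knockdown and 43.9, 61.4 and 60.5 in the PARP1 knockdown. Its groups did not overlap, at log2 fold changes of 0.81 (SE 0.15, adjusted p = 0.000351) and 1.46 (SE 0.15, adjusted p = 2.07e-08), and with the trends removed at 0.96 and 1.78. CMPK2, a mitochondrial nucleotide kinase, was at 5, 6.39 and 4.79 CPM, then 7.53, 6.54 and 6.93, then 9.34, 7.7 and 6.04. The TRIM28 knockdown lay just above the controls and the PARP1 knockdown overlapped them. It passed in the PARP1 knockdown (log2 0.52, SE 0.22, adjusted p = 0.0418) and lost that call without control replicate 1 (0.51), control replicate 3 (0.49), PARP1 knockdown replicate 1 (0.35) or PARP1 knockdown replicate 2 (0.53). Its neighbour RSAD2 (viperin), which makes a chain-terminating nucleotide, was at 51.6, 44.8 and 33.2 CPM, then 49.2, 36.8 and 36.2, then 35.5, 42.2 and 38.9. The 3 groups of RSAD2 overlapped, at -0.08 and -0.15 on the log2 scale. With the trends removed RSAD2 passed as higher in the PARP1 knockdown, at 0.48. RSAD2 and CMPK2 overlap on opposite strands, so their counts are uncertain.

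None of the 4 helicase and SAMD9 members passed in either knockdown in edgeR or in DESeq2, with 0 at an unadjusted p below 0.05 in edgeR, and all were scarce. DDX60, a helicase that promotes RIG-I signalling, was at 2.6, 3.05 and 1.84 CPM in the controls, 3.74, 2.87 and 1.81 in the TRIM28 knockdown and 2.98, 2.28 and 2.67 in the PARP1 knockdown. Its paralog DDX60L was at 2.79, 2.42 and 2.21 CPM, then 3.3, 4.06 and 1.87, then 3.31, 3.21 and 2.97. SAMD9L, the neighbour of SAMD9, ran from 0.553 to 2.17 CPM over the 9 libraries, with log2 fold changes of -0.05 and 0.10. SAMD9, an inhibitor of poxvirus replication, was at 1.54, 1.16 and 0.968 CPM, then 0.934, 1.04 and 2.23, then 0.596, 1.18 and 1.58. The groups overlapped for DDX60 and SAMD9, and for DDX60L the PARP1 knockdown lay just above the controls. These genes are long, and with the trends removed DDX60L passed in both knockdowns (0.81 and 1.24) and DDX60 in the PARP1 knockdown (1.06).

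Of the remaining members, RTP4, a chaperone of surface receptors, rose in both knockdowns. RTP4 (ENSG00000136514, chr3:187368385-187372076, plus strand) was at 1.4, 1.36 and 1.43 CPM in the controls, 3.49, 2.79 and 3.07 in the TRIM28 knockdown and 3.64, 2.45 and 3.66 in the PARP1 knockdown. The separation was complete at low counts, with log2 fold changes of 1.16 (SE 0.29, adjusted p = 0.00513) and 1.22 (SE 0.30, adjusted p = 0.00103). EPSTI1 was at 1.68, 1.6 and 1.29 CPM, then 3.92, 3.75 and 1.99, then 1.52, 1.86 and 2.18. Only the TRIM28 knockdown cleared the controls. It rose in the TRIM28 knockdown (log2 1.07, SE 0.32, adjusted p = 0.015), a call lost without TRIM28 knockdown replicate 1 (0.89) or 2 (0.98), and had 0.27 in the PARP1 knockdown. Both values passed with the trends removed, at 1.35 and 0.81. SP110, a nuclear body protein, was at 15.3, 14.3 and 13.9 CPM, then 12.8, 9.01 and 11, then 9.21, 10.1 and 4.55. Both knockdowns lay below the controls, and SP110 passed in the PARP1 knockdown (log2 -0.85, SE 0.22, adjusted p = 0.00165) and not in the TRIM28 knockdown (-0.40, adjusted p = 0.158). With the trends removed the PARP1 knockdown value was 0.05. SP110 overlaps SP140 on the opposite strand. TRIM22, a ubiquitin ligase with antiviral activity, ran from 0.0989 to 1.26 CPM, and its log2 fold changes of 0.90 (SE 0.58) and 0.74 (SE 0.60) did not pass. With the trends removed TRIM22 passed as higher in the PARP1 knockdown. XAF1 was at 0.0481 CPM in control 1 and at 0 counts in the other 8 libraries, so no fold is given.

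Between the knockdowns, 7 members were higher in the PARP1 knockdown, 1 was lower and 33 did not pass. The shares of 17.1% and 2.44% stood beside 11.9% and 13.2% of all tested genes, of which 25.1% passed in either direction. With library totals 4 were higher and 2 lower, beside 4.72% and 17.3% of all tested genes. ISG15 differed most among the 7, by 0.95 on the log2 scale (SE 0.17, adjusted p = 0.000538), followed by ISG20 at 0.65 (SE 0.15, adjusted p = 0.00322). The others were IFI6 at 0.55, IFI27 at 0.49, OASL at 0.47 (SE 0.13, adjusted p = 0.00897), CCL5 at 0.46 and IFITM3 at 0.38. MX2 was the one that was lower, at -0.69 (SE 0.21, adjusted p = 0.0203). No member reached a 2-fold difference between the knockdowns. With the trends removed ISG15 had 0.24 (adjusted p = 0.187), and CCL5, IFI6, IFITM3 and MX2 did not pass either. At that setting OAS1 (0.64) and IRF1 (0.42) passed as higher in the PARP1 knockdown than in the TRIM28 knockdown. Leaving out 1 library ended 4 of the 8 calls. IFITM3 lost its call without any 1 of 5 of the 6 libraries, at 0.33 to 0.44, and MX2 without TRIM28 knockdown replicate 1 (-0.62) or 2 (-0.66) or PARP1 knockdown replicate 2 (-0.67) or 3 (-0.58). CCL5 lost it without TRIM28 knockdown replicate 1 (0.44) or 3 (0.38) or PARP1 knockdown replicate 2 (0.36), and IFI27 without the same libraries, at 0.52, 0.45 and 0.33. OASL and ISG20 passed under all 17 alternative settings.

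The members that rose were shorter and richer in GC than those that did not. In the TRIM28 knockdown the 18 that rose had a median summed exon length of 2453 bases and a median GC content of 52.8%, the 3 that fell 5067 bases and 44.3%, and the 20 others 8651 bases and 44.1%. For the PARP1 knockdown these medians were 2612 bases and 55.4% for the 19 that rose, 4916 bases and 44.1% for the 6 that fell and 11422 bases and 42% for the 16 others. Over all tested genes they were 5054 bases and 48.6%. Across the 41 members, which share libraries, Spearman's rho of the log2 fold change with length was -0.38 in the TRIM28 knockdown and -0.48 in the PARP1 knockdown. With GC content rho was 0.42 and 0.60. With both trends removed the length values were 0.13 and 0.19, and the GC values -0.05 and -0.01. The part of length and GC in the members' changes was not tested beyond this removal.

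**Figure D4:**
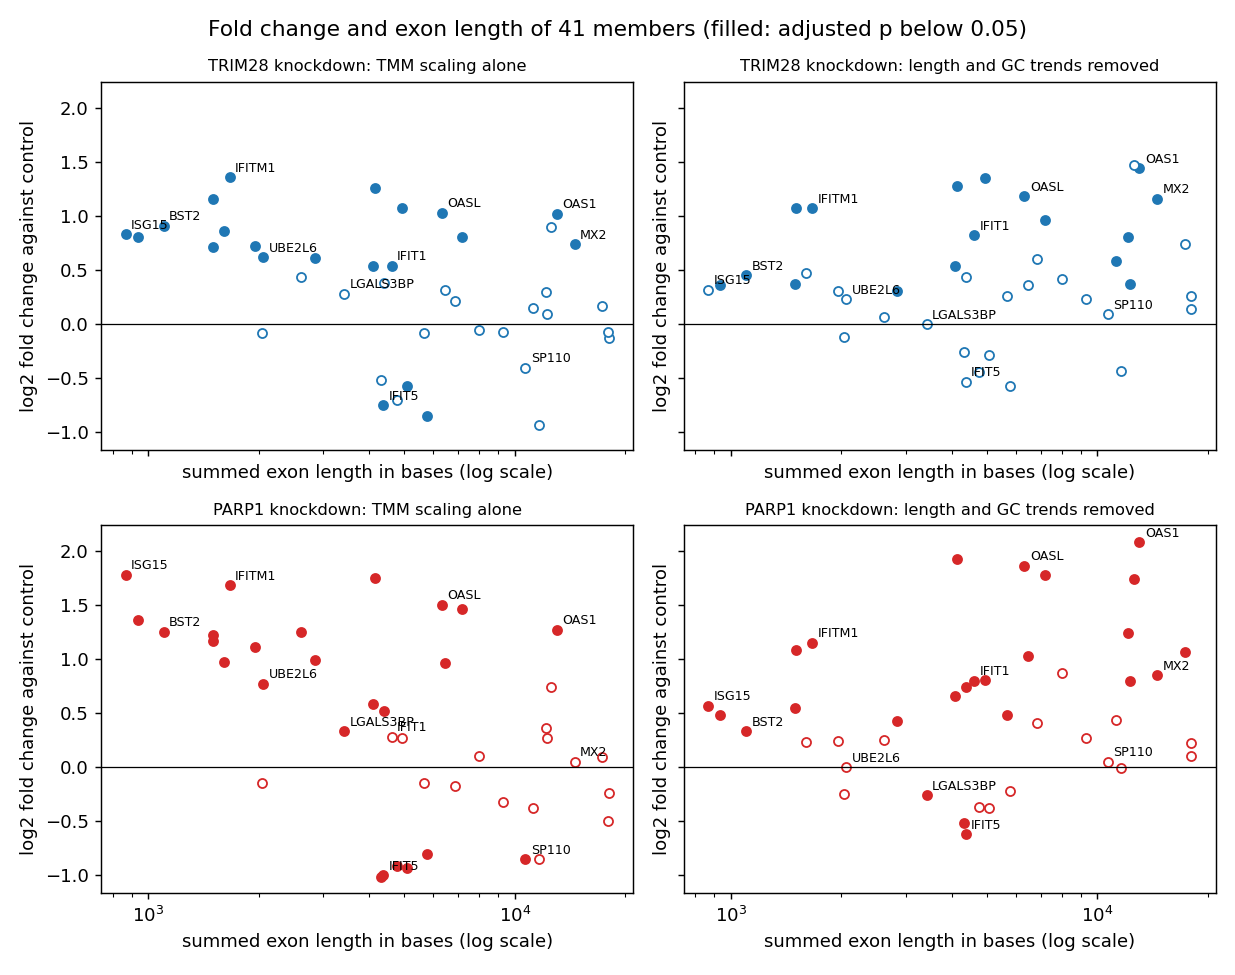
Log2 fold change (y axis) of the 41 tested members against summed exon length in bases (x axis, log scale), as measured and with the length and GC trends over all genes removed, for the TRIM28 and PARP1 knockdowns. As measured, the short members lie higher (rho -0.38 and -0.48), and after removal this slope is gone (rho 0.13 and 0.19) while OAS1, OASL, IFI27 and ISG20 stay above 0.

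Removing the trends left 17 members higher and 0 lower in the TRIM28 knockdown in edgeR, where 2 were lower at an unadjusted p below 0.05, and DESeq2 without that removal had 3 lower. It left 22 higher and 3 lower in the PARP1 knockdown. At that setting 11% of all genes with a GC value were higher and 10.6% lower in the TRIM28 knockdown, and 24.1% and 22.8% in the PARP1 knockdown. Of the 18 that rose in the TRIM28 knockdown, 14 were still called, and the lost calls were IFI35, IFITM2, ISG15 and UBE2L6. Of the 19 in the PARP1 knockdown 14 were still called, and IFI35, IFITM2, IRF7, LGALS3BP and UBE2L6 were lost. The 8 members gained there were IFIT1 (0.80), MX2 (0.85), RSAD2 (0.48), EPSTI1 (0.81), TRIM22 (1.74), IRF1, DDX60 and DDX60L. Over all 17 alternatives, 10 of the 21 TRIM28 knockdown calls held in each one: CCL5, IFITM1, IFITM3, BST2, OAS1, OASL, IFI27, IFI6, ISG20 and RTP4. In the PARP1 knockdown 13 of 25 did, these same names with ISG15, IFIT2 and IFIT5. The IFIT and HERC falls in the TRIM28 knockdown are not among them.

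Other genes of the interferon pathway, from ligands to effectors, moved in both directions. Of 38 further interferon pathway genes, 33 were tested. In the TRIM28 knockdown 3 rose and 8 fell, and in the PARP1 knockdown 10 rose and 17 fell, shares of 9.09%, 24.2%, 30.3% and 51.5%. The shares over all tested genes were 10.3%, 17.5%, 27.1% and 32.2%, so the risen shares were near those of all genes. Of the ligands, IFNB1, the interferon made by most non-immune cells, was at 2.02, 1.16 and 1.8 CPM in the controls, 3.74, 3.35 and 2.77 in the TRIM28 knockdown and 4.37, 4.31 and 8.71 in the PARP1 knockdown. All knockdown libraries lay above the controls, and it rose by 0.98 (SE 0.31, adjusted p = 0.0221) and 1.78 (SE 0.31, adjusted p = 2.34e-05). The TRIM28 knockdown call of IFNB1 was lost when control replicate 2 (0.80), TRIM28 knockdown replicate 1 (0.87) or TRIM28 knockdown replicate 2 (1.00) was left out. IFNL1, a type III interferon, rose in the PARP1 knockdown by 0.95 (adjusted p = 0.0223), and with the trends removed had 0.07, which did not pass. IFNB1 still passed with them removed, at 0.88 and 1.58. Its TRIM28 knockdown rise did not pass with the length trend alone removed (0.69), with library totals (0.82) or in limma on log2(FPKM + 1) (0.63).

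Of the receptors, IFNGR1, a subunit of the interferon gamma receptor, was at 24.7, 23.5 and 15.7 CPM in the controls, 12.6, 15.1 and 13.9 in the TRIM28 knockdown and 6.89, 6.77 and 4.65 in the PARP1 knockdown. The groups did not overlap, and it fell by 0.62 and 1.79 on the log2 scale. Removing the trends left IFNGR1 at -0.45 in the TRIM28 knockdown, which did not pass, and -1.47 in the PARP1 knockdown, which did. Leaving out control replicate 1 (-0.48), control replicate 2 (-0.52), TRIM28 knockdown replicate 1 (-0.55) or TRIM28 knockdown replicate 3 (-0.60) ended the TRIM28 knockdown call. IFNAR1, a subunit of the type I receptor, had -0.53, which did not pass, and fell by 0.85 in the PARP1 knockdown. IFNAR1 stood at 0.05 and 0.15 with the trends removed and passed in neither. JAK1, the kinase shared by these receptors, was at 81.6, 71.3 and 41.7 CPM in the controls, 28.8, 30.4 and 28.8 in the TRIM28 knockdown and 17.4, 20 and 21 in the PARP1 knockdown. It was lower in every knockdown library and fell by 1.15 and 1.74.

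JAK1 still passed with the trends removed, at -0.62 and -0.79. TYK2, the other kinase of the type I and type III receptors, had 0.08 in the TRIM28 knockdown, which did not pass. It rose by 0.54 in the PARP1 knockdown and still passed with the trends removed, at 0.47. Of the 6 further factors, 2 rose and 4 fell in the PARP1 knockdown. IRF3 rose there by 0.78, and by 0.33 with the trends removed, which still passed. In the TRIM28 knockdown IRF3 had 0.32 and did not pass. On opposite strands, JAK1 overlaps RAVER2, IRF3 overlaps BCL2L12, EIF2AK2 overlaps GPATCH11 and PIAS1 overlaps CALML4, so their counts are uncertain.

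Other pathway genes called in both knockdowns also fell, apart from BATF2 and TRIM21. TRIM21, an antibody receptor and ubiquitin ligase, rose by 0.41 and 0.46, and had 0.17 and 0.09 with the trends removed, which did not pass. ADAR, which edits double-stranded RNA, was at 169, 166 and 126 CPM in the controls, 63.7, 67.3 and 70.6 in the TRIM28 knockdown and 48.2, 39.3 and 34.9 in the PARP1 knockdown, and fell by 1.19 and 1.91. Its values were -0.81 and -1.17 with the trends removed, and both passed. EIF2AK2 (PKR), the kinase that halts translation on double-stranded RNA, fell by 0.79 and 1.23, and did not pass with the trends removed, at -0.27 and -0.34. Its TRIM28 knockdown call also ended when control replicate 1 (-0.62), control replicate 2 (-0.69), TRIM28 knockdown replicate 2 (-0.65) or TRIM28 knockdown replicate 3 (-0.67) was left out. GBP1, a GTPase induced by interferon gamma, fell by 0.84 and 1.15, and was at -0.47 in both with the trends removed and still passed. PIAS1, an inhibitor of STAT signalling, fell by 1.08 and 0.98, and had -0.55 and -0.07 with the trends removed, where neither passed. BATF2, a transcription factor, was at 0.722, 1.11 and 1.11 CPM in the controls, 2.61, 1.83 and 2.41 in the TRIM28 knockdown and 3.58, 2.37 and 1.78 in the PARP1 knockdown. It rose by 1.22 and 1.41, and the first did not pass with control replicate 1 (1.07) or TRIM28 knockdown replicate 1 (1.12) left out. Neither rise of BATF2 passed with the trends removed, at 0.92 and 0.83.

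**Figure D5:**
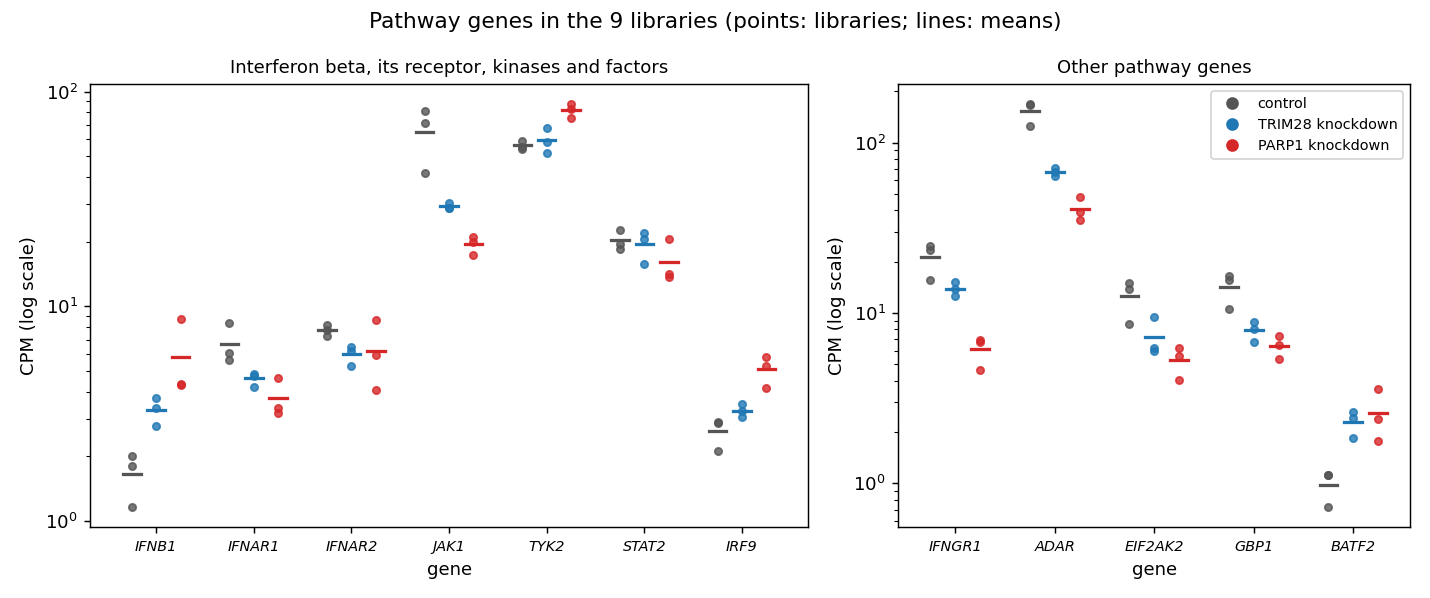
CPM (y axis, log scale) of interferon beta, its receptor, kinases and factors (left) and of 5 other pathway genes (right) in each library, with 1 point per library and a line at each group mean. IFNB1 and BATF2 are above the controls in all 6 knockdown libraries, and JAK1, IFNGR1, ADAR and GBP1 are below them in all 6.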

How the data were processed

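Polyadenylated RNA of 9 786-O libraries was measured, 3 in each group. Reads were handled, per the submitters' processing notes, with FastQC (0.11.9), Trim Galore (0.6.6), the aligner STAR (2.7.9a), the counter featureCounts (2.0.1) on GRCh38, and also DESeq2 (1.30.0) under R (4.0.3). Neither annotation release nor strand setting is given in the sources used here. As file headers show, the authors deposited raw counts per gene together with FPKM values, which are counts divided by exon length and library total. The counts went into edgeR 4.0.16 under R 4.3.3 (TMM, the package's low-count filter, quasi-likelihood test, Benjamini-Hochberg adjustment at 0.05). All 9 libraries entered 1 fit without covariates, with 6 residual degrees of freedom. Its biological coefficient of variation was 0.149. The script was tested on simulated counts. Standard errors are the log2 fold change over the root of the F statistic. Trends were removed as lowess curves (span 0.3) over length and over GC content, known for 13390 tested genes. Alternatives used DESeq2 1.42.0, limma 3.58.1 on log2(FPKM + 1) or log2(FPKM + 0.1), other scalings and filters, and fewer libraries. The members, roles, pathway list and alternatives were chosen with earlier results of these data known. Per role, the pair of members with the smallest adjusted p in each knockdown were given in every library, with others where a family comparison needed them. Pathway genes were named where called in both knockdowns with a log2 change of at least 1 in one, with IFNB1, and some others by value alone. Some items are not reported here. Coordinates are those of the deposited table.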

Additional observations from a re-analysis of the deposited data

How the results depend on the processing

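Of 1305 values of single genes under the alternatives, 1152 kept their side of the threshold and direction, 151 lost a call and 2 reversed: LGALS3BP and SP110 in the PARP1 knockdown, at -0.26 and 0.05 with the length and GC trends removed. At that setting alone, 47 of 77 values were kept, 28 lost a call and these 2 reversed. Only genes called in the main fit are counted here, so calls gained are left out. In the TRIM28 knockdown the members' median log2 fold change was 0.22 with library totals, 0.49 with the length trend removed, and 0.10 and 0.14 in limma with pseudocounts of 1 and 0.1. There 5 members were lower when 2 groups were fitted alone and 0 with both trends removed, in edgeR, against 3 in DESeq2 without removal. In the PARP1 knockdown the number lower was 13 with library totals, 3 with both trends removed and 10 and 12 in limma. Its median was 0.01 with library totals, 0.42 with at least 50 counts in 3 libraries, 0.63 and 0.48 with the length trend or both trends removed and 0.00 in limma at either pseudocount. Between the knockdowns 4 members were higher with library totals and in limma at either pseudocount, and 2 were lower in each of these. With the length trend or both trends removed 0 were lower in edgeR, against 1 in DESeq2 without removal. At an unadjusted p below 0.05, 2 were lower in edgeR under either removal. The median was -0.10 with library totals and -0.03 and -0.10 in limma. Over all genes, the median log2 fold change was -0.18, -0.39 and -0.20 with library totals in the TRIM28 knockdown, the PARP1 knockdown and between them, beside -0.02, -0.07 and -0.03 with TMM. Leaving out 1 library at a time gave, in the TRIM28 knockdown, 15 to 19 higher, 0 to 5 lower and a median of 0.34 to 0.45. In the PARP1 knockdown it gave 18 to 19 higher, 4 to 9 lower and 0.33 to 0.49, and between the knockdowns 4 to 11 higher, 0 to 3 lower and 0.00 to 0.12. Replicate numbers share only a number, with same-number correlations from -0.0814 to 0.141, and the replicate block gave 18 higher and 3 lower, 19 and 6, and 8 and 1. Between the knockdowns IFNB1 passed narrowly in the main fit, at 0.80 (edgeR, adjusted p = 0.0496). Under the block it lost that call, at 0.77 (edgeR, adjusted p = 0.0685). It also lost it with library totals (0.62), the 2 groups alone (0.81), or the length trend (0.52) or both trends (0.70) removed. In limma it had 0.48 and 0.57 and did not pass. The call ended too without TRIM28 knockdown replicate 1 (0.91), 2 (0.83) or 3 (0.71), or PARP1 knockdown replicate 3 (0.40). Groups of 3 libraries limit the precision, and standard errors were larger in scarce genes, such as 0.58 and 0.60 for TRIM22 against 0.13 for OASL.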
